A study of Mus musculus with 4 samples.

Results

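The aryl hydrocarbon receptor (AHR) and the genes around it were read in peritoneal macrophages that had been kept with or without medium from tumour cells. The 8 genes are Ahr itself, its DNA-binding partner Arnt, the chaperones Hsp90aa1, Hsp90ab1 and Ptges3, and the targets Cyp1b1, Nqo1 and Tiparp. They were taken by symbol from a table of 54532 genes, each symbol matched 1 row, and none of the 8 had fewer than 10 reads in a library.

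The data are 4 RNA-seq libraries of macrophages from the peritoneal fluid of mice labelled WT, 1 library per condition. The macrophages were cultured in normal medium (NM) or with 30% conditioned medium of 4T1 cells (4T1-CM), a mouse mammary carcinoma line, to ask how AHR activity in macrophages responds to a breast tumour. Each medium was given with the solvent DMSO in 1 culture and with the AHR antagonist CH223191 at 10 µM in another that blocks ligand binding. The genotype label is WT in all 4, so the receptor gene was intact in every condition. By the study's methods such macrophages were elicited with thioglycollate in BALB/c mice, and the inhibitor or DMSO was added before 4T1-CM. The labels of these libraries give no age, no number of mice and no length of treatment.

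AHR is a ligand-activated transcription factor of the bHLH-PAS family. Without ligand it is held in the cytoplasm by HSP90 with cochaperones, among them p23, the product of Ptges3. With ligand it enters the nucleus, pairs with ARNT and binds a short DNA core, the xenobiotic response element, near genes such as Cyp1a1, Cyp1b1 and Tiparp. AHRR and TIPARP in turn restrain the receptor, and in macrophages AHR is known for its part in responses to microbial and dietary compounds and to products of tryptophan breakdown.

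The counts summed to 15535405 to 17557127 per library, and scaling factors (TMM) lay between 0.986 and 1.026. Macrophage markers were present in every library, with all 8 of the list at 10 reads or more and summed levels of 14303 to 43449 CPM (counts scaled to 1000000 per library). That sum was itself higher with 4T1-CM, by a log2 ratio of 1.51 with DMSO and 1.23 with CH223191. Most of it was Lyz2, with 189512 and 241493 reads in NM and 576935 and 577870 in 4T1-CM. The log2 ratios of the single markers ran from 0.41 to 3.52 with DMSO and from 0.07 to 3.83 with CH223191. Fibroblast markers (Col1a1, Col1a2, Col3a1, Dcn, Lum and Pdgfra) summed to 63 and 30.1 CPM in NM with DMSO and with CH223191, and to 149 and 127 CPM in 4T1-CM. Neutrophil markers summed to 7.09 to 32.4 CPM, with Ly6g, S100a9 and Retnlg at 0 in every library, and nearly all of that sum was S100a8, with 99 and 190 reads in NM and 560 and 412 in 4T1-CM. Cxcr2, the other neutrophil marker kept, went the opposite way, with 12 and 9 reads in NM and 2 and 0 in 4T1-CM. Markers of epithelial tumour cells, B cells, mesothelial cells, eosinophils and mast cells had at most 22 summed reads, those of dendritic cells at most 43, and the 4 T cell markers none. The part of any of these cell types in the levels below was not tested. In a bulk library, fewer cells of a type and less RNA per cell cannot be told apart.

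With 1 library per condition there is no replicate check, and the 95% intervals given with the ratios cover counting error only. Ratios are log2 of scaled reads with 0.5 added to each count, and a gene at least 2-fold higher or lower is counted as called. A gene was kept if 1 or more libraries held 10 of its reads or more. Values are listed throughout in the order NM with DMSO, NM with CH223191, 4T1-CM with DMSO and 4T1-CM with CH223191.

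Ahr and Cyp1b1 were at least 2-fold higher with 4T1-CM whether DMSO or CH223191 was present, whereas Arnt and the 3 chaperone genes were within 1.3-fold in all 4 comparisons. With DMSO, 3 of the 8 genes were called higher with 4T1-CM (Ahr, Cyp1b1 and Nqo1), where 12.2% of the 13715 genes kept were. With CH223191, 2 of 8 were called higher (Ahr and Cyp1b1), against 12.0% of all genes. None of the 8 was called lower with 4T1-CM, against 6.12% of all genes with DMSO and 7.86% with CH223191. Taken over both comparisons of 4T1-CM, 2 of 8 were higher and 0 lower, against 8.18% and 3.38% of all genes. CH223191 gave a single call, Cyp1b1 lower in NM, where 3.31% of all genes were lower and 4.84% higher, with 0 of the 8 genes called higher. In 4T1-CM it gave no call among the 8, against 2.80% of all genes higher and 2.62% lower, and no member was called in the same direction in both media, against 0.678% higher and 0.481% lower. A single member is a larger share of 8 genes than any of these background shares, so counts this small say little on their own. The 2 comparisons of 4T1-CM share no library, nor do those of CH223191, but each comparison of 4T1-CM shares libraries with those of CH223191.

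**Figure D1:**
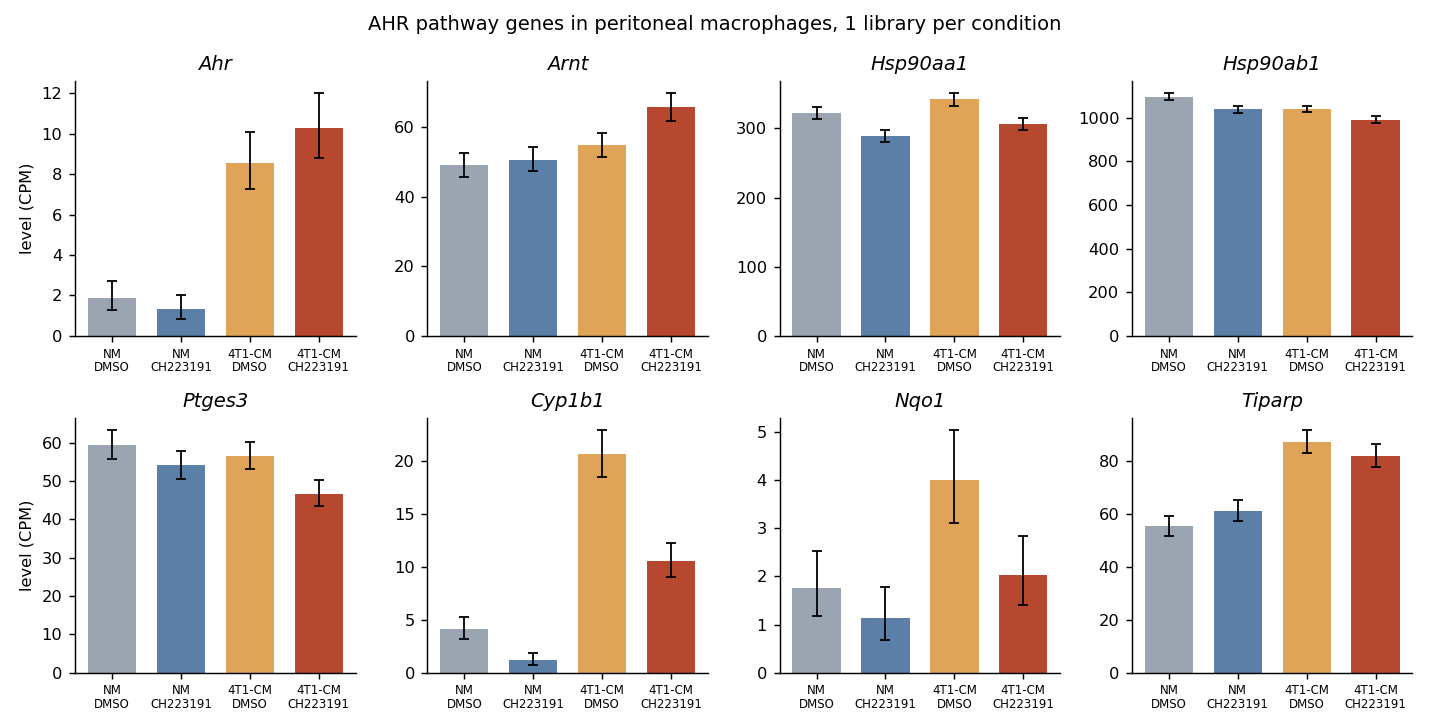
Level of each of the 8 genes in CPM (vertical axes from 0, each gene on its own scale) in the 4 libraries. Bars are single libraries and error bars are exact 95% Poisson intervals of the read count. Ahr, Cyp1b1, Nqo1 and Tiparp had their 2 highest bars in 4T1-CM, and the bars of Hsp90ab1 stayed between 991 and 1096 CPM.

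Per kilobase of the gene length given with the counts, the members spanned a wide range of levels. For Ahr and Tiparp that length equals the exonic bases pooled over all transcripts, not the length of a single transcript. In NM with DMSO the level was 366 CPM per kb for Hsp90ab1, 81.9 for Hsp90aa1, 26.8 for Ptges3, 12.7 for Tiparp, 6.13 for Arnt, 1.13 for Nqo1, 0.795 for Cyp1b1 and 0.305 for Ahr. The order of the 5 most abundant was the same in all 4 libraries, with each neighbour's ratio interval above 1. Among the other 3 the order differed between libraries: Cyp1b1 lay above Nqo1 in both 4T1-CM libraries, by 1.56-fold per length (1.21 to 2.05) with DMSO, and below it in both NM libraries, by 3.13-fold (1.55 to 6.3) with CH223191. Neighbours that could not be separated by counting error were Nqo1 and Cyp1b1 in NM with DMSO, Cyp1b1 and Ahr in NM with CH223191, and Cyp1b1, Ahr and Nqo1, each from the next, in 4T1-CM with CH223191. Ahr was thus the least abundant of the 8 per length, or not separable from the least abundant, in every library.

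Ahr (ENSMUSG00000019256) lies on the minus strand of chromosome 12, from 35497974 to 35535038 in GRCm38, with 11 exons in the transcript with the longest coding sequence. It had 30, 21, 150 and 167 reads, or 1.88, 1.32, 8.57 and 10.3 CPM. Both libraries with 4T1-CM were above both with NM, and the counting intervals of the NM and the 4T1-CM libraries did not overlap. Its log2 ratio of 4T1-CM to NM was 2.17 (1.61 to 2.80) with DMSO, which is 4.49-fold, and 2.93 (2.30 to 3.69) with CH223191, which is 7.63-fold. CH223191 left a log2 ratio of -0.50 (-1.39 to 0.34) in NM and 0.26 (-0.06 to 0.59) in 4T1-CM, both with intervals that include 0. The response to the inhibitor differed between media by 0.77 on the log2 scale, with an interval of -0.15 to 1.72 that also includes 0. Per length, Ahr stood at percentile 12.7 and 9.86 of all genes kept in the NM libraries and at 28.2 and 31 in the 4T1-CM libraries, so it remained in the lower part of the range. An antisense gene, Gm48236, covers 127 of its exonic bases and had 0 reads in every library.

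Arnt (ENSMUSG00000015522; chromosome 3, 95434388 to 95497240, plus strand) encodes the partner that AHR shares with the hypoxia-inducible factors. It had 782, 807, 960 and 1068 reads, a range of 49.1 to 65.7 CPM. Its log2 ratio of 4T1-CM to NM was 0.16 (0.02 to 0.30) with DMSO and 0.37 (0.24 to 0.51) with CH223191. For CH223191 against DMSO it was 0.05 (-0.09 to 0.19) in NM and 0.26 (0.13 to 0.39) in 4T1-CM, and the difference of these responses was 0.21 (0.02 to 0.41), which became -0.01 (-0.20 to 0.18) when scaled to Actb. These shifts are at most 1.3-fold, and without replicate cultures they cannot be set against the spread between cultures.

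The ratio of receptor to partner transcripts therefore differed between media, in single libraries and without a measure of protein. Per length, Arnt exceeded Ahr by 20.1-fold (13.9 to 29.9) and 29.6-fold (19.2 to 48) in the NM libraries and by 4.93-fold (4.14 to 5.89) and 4.92-fold (4.18 to 5.83) in the 4T1-CM libraries. This ratio, and the other ratios between genes below, were chosen after the read counts were seen. Hif1a, which encodes another partner of ARNT, was also higher with 4T1-CM, with 1331, 1173, 6818 and 7051 reads. The ratio of Hif1a to Ahr per length was 46.4, 58.4, 47.5 and 44.1, with intervals that overlap one another in all 4 libraries. Of 14 ARNT-type partners and other bHLH-PAS factors, 9 were kept, Hif1a was the 1 gene called higher in both comparisons of 4T1-CM, and Npas4, a neuronal activity factor, was the 1 called lower in both, with 129, 156, 13 and 16 reads. Hif3a and Sim1 had 0 reads in every library.

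None of the other regulators that act on AHR directly had a ratio for 4T1-CM as high as that of Ahr. The list of 9 includes Ahr, Arnt and Tiparp besides Arnt2, Ahrr and Nrip1, all 9 were kept, and Ahr was the 1 gene called in both comparisons of 4T1-CM. The list's median log2 ratio was 0.16 with DMSO and 0.42 with CH223191, where the medians over all genes were 0.01 and 0.02. Without Ahr, Arnt and Tiparp the medians of the other 6 were -0.03 and 0.28, and the highest ratio was that of Ahrr. Ahrr, the repressor that competes with AHR for ARNT, had 13, 10, 25 and 23 reads. Its log2 ratio of 4T1-CM to NM was 0.78 (-0.21 to 1.90) with DMSO and 1.13 (0.04 to 2.41) with CH223191. Per length, Ahr exceeded Ahrr by 3.54-fold (1.79 to 7.38) and 3.22-fold (1.45 to 7.65) in NM, and by 9.19-fold (5.99 to 14.7) and 11.1-fold (7.17 to 18) in 4T1-CM.

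Hsp90aa1 (ENSMUSG00000021270; chromosome 12, 110690605 to 110702728, minus strand) and Hsp90ab1 (ENSMUSG00000023944; chromosome 17, 45567775 to 45573271, minus strand) encode the stress-responsive and the constitutive cytosolic HSP90. Hsp90aa1 had 5130, 4602, 5985 and 4975 reads, with the lower count of each medium in the CH223191 library. Its log2 ratio was 0.09 and 0.08 for 4T1-CM, with DMSO and with CH223191, and -0.15 (-0.21 to -0.10) and -0.16 (-0.21 to -0.10) for CH223191, in NM and in 4T1-CM. Hsp90ab1 had 17479, 16541, 18199 and 16101 reads. Its log2 ratios were -0.08 and -0.07 for 4T1-CM and -0.08 and -0.07 for CH223191, so no comparison moved it by more than 1.05-fold. At these depths counting error is narrow, and such shifts exclude 0 by counting alone while their size against culture-to-culture spread is unknown. Scaled to Actb, the ratios of Hsp90aa1 for 4T1-CM became -0.03 and -0.25 and that of Hsp90ab1 for CH223191 in NM became 0.05, so their direction depends on the scaling.

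Reads of both chaperone genes can be told apart over most of their length, and the longest stretch they share is shown for that reason. The coding sequences were 76.2% identical over 2172 aligned bases. The longest identical run was 33 bases, at positions 52 to 84 of the Hsp90aa1 coding sequence and 37 to 69 of that of Hsp90ab1, counted from the start codon, so the genes share no 50-base word with each other.
Hsp90aa1 and Hsp90ab1 shared run: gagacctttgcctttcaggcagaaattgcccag
Processed pseudogenes are closer. Of the 50-base words of Hsp90aa1 transcripts, 47.5% occur in 4 other genes, which together had 63 to 107 reads per library, and 3.44% of those of Hsp90ab1 occur in 6 genes with at most 7 summed reads. Per length, Hsp90ab1 exceeded Hsp90aa1 by 4.47-, 4.71-, 3.99- and 4.24-fold, with the smallest ratio in 4T1-CM with DMSO.

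Ptges3 (ENSMUSG00000071072; chromosome 10, 128058954 to 128077272, plus strand) encodes p23, which steadies the HSP90 complex with its client. It had 947, 860, 989 and 758 reads, lowest in 4T1-CM with CH223191. Its log2 ratio was -0.07 (-0.20 to 0.06) and -0.21 (-0.36 to -0.07) for 4T1-CM, and -0.14 (-0.27 to 0.00) and -0.28 (-0.41 to -0.14) for CH223191. A processed pseudogene, Ptges3-ps, had 358, 260, 392 and 287 reads, and 19.6% of the 50-base words of Ptges3 occur in other genes, so the split of reads between gene and pseudogene is uncertain. Over the 19 genes of HSP90 and its cochaperones, all kept, 0 were called in the same direction in both comparisons of either factor. Their ratios for 4T1-CM spanned -0.93 to 0.78 when DMSO was present (median -0.07) and -1.20 to 0.23 when CH223191 was (median -0.21), and their medians for CH223191 were 0.04 in NM and -0.04 in 4T1-CM. The lowest for 4T1-CM was Ahsa1, an activator of the HSP90 ATPase, at -0.93 (-1.07 to -0.80) and -1.20 (-1.33 to -1.06). Cdc37, the cochaperone of kinase clients, stood at -0.75 and -0.78, and Hspa1b, an inducible HSP70, was called for CH223191 in NM, at 1.14 on 12 and 27 reads.

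**Figure D2:**
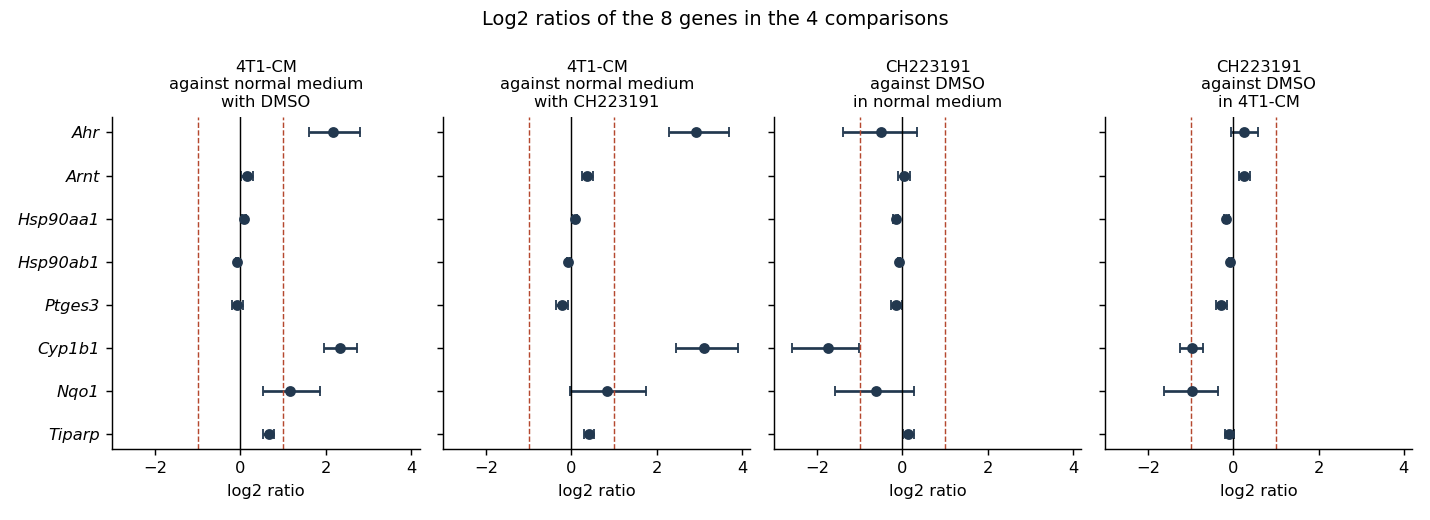
Log2 ratios of the 8 genes (rows) in the 4 comparisons (panels), each point a pair of single libraries with its 95% counting interval. The dashed lines mark a 2-fold difference and the solid line a ratio of 0. Ahr and Cyp1b1 lie beyond the upper line in both panels of 4T1-CM, and Cyp1b1 lies beyond the lower line for CH223191 in normal medium, at -1.74, and just inside it in 4T1-CM, at -0.97.

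Cyp1b1 (ENSMUSG00000024087; chromosome 17, minus strand, 79706953 to 79715041) encodes a cytochrome P450 that metabolises polycyclic aromatic compounds and oestrogens. These coordinates are those of the count table, which match the GRCm38 annotation for the other 7 members, whereas that annotation places Cyp1b1 from 79701537 to 79715061. It had 65, 19, 361 and 171 reads, or 4.08, 1.19, 20.6 and 10.5 CPM. Both 4T1-CM libraries were above both NM libraries, and within each medium the CH223191 library was below the DMSO library. Its log2 ratio of 4T1-CM to NM was 2.33 (1.95 to 2.74) with DMSO, or 5.03-fold, and 3.11 (2.45 to 3.91) with CH223191, or 8.61-fold. For CH223191 against DMSO it was -1.74 (-2.59 to -1.02) in NM and -0.97 (-1.24 to -0.70) in 4T1-CM, which is 3.35-fold and 1.96-fold lower. The difference of these 2 responses was 0.80, with an interval of -0.01 to 1.67, so the responses in the 2 media were not separated with TMM scaling. Scaled by total counts the difference was 0.85 and its interval excluded 0. With the inhibitor present, Cyp1b1 in 4T1-CM was 2.57-fold (1.93 to 3.49) above its level in NM with DMSO, and Ahr was 5.39-fold (3.69 to 8.35) above. The ratio of Cyp1b1 was the farthest from 0 among the 8 genes in all 4 comparisons, level with Nqo1 for CH223191 in 4T1-CM, and its interval overlapped that of Ahr for 4T1-CM and that of Nqo1 for CH223191.

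The summed level of the fibroblast markers changed in the same direction as Cyp1b1 in all 4 comparisons, but by less. The 6 genes had 1005, 479, 2614 and 2070 summed reads, 5 of them were kept, and Lum had 3 reads in NM with DMSO and 0 in the other libraries. Their summed log2 ratio was 1.24 (1.14 to 1.35) and 2.08 (1.94 to 2.23) for 4T1-CM, and -1.06 (-1.23 to -0.91) and -0.23 (-0.31 to -0.15) for CH223191. The intervals of the sum and of Cyp1b1 overlapped only for CH223191 in NM. Most of the sum came from Col1a1 and Col1a2, and not every marker followed it. Dcn had 35 reads in NM with DMSO and 45 in NM with CH223191, a log2 ratio of 0.36 (-0.30 to 1.05), and Pdgfra had 91 reads in NM with DMSO and 83 in 4T1-CM with DMSO, a log2 ratio of -0.27 (-0.71 to 0.18). Among 10818 protein-coding genes that reached 10 reads in each of the libraries, the 3 whose pattern over the 4 libraries was nearest to that of Cyp1b1 were Col3a1, Fbn1 and Iglon5, at Euclidean distances of 0.609, 0.613 and 0.71 between centred log2 CPM values. These distances exceeded those of the 3 genes nearest to each of Ahr, Nqo1 and Tiparp, which were at most 0.273. Col3a1 is 1 of the 6 fibroblast markers. Per 1000 reads of the 6 markers, Cyp1b1 had 64.7 (49.5 to 83.2), 39.7 (23.7 to 62.6), 138 (123 to 154) and 82.6 (70.3 to 96.6) reads, a measure added after the counts were seen. On this measure the DMSO library with 4T1-CM lay above the other 3 with no overlap of intervals, the 2 libraries of 4T1-CM did not overlap, and the 2 of NM did. The part of fibroblasts in the Cyp1b1 levels was not tested.

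**Figure D3:**
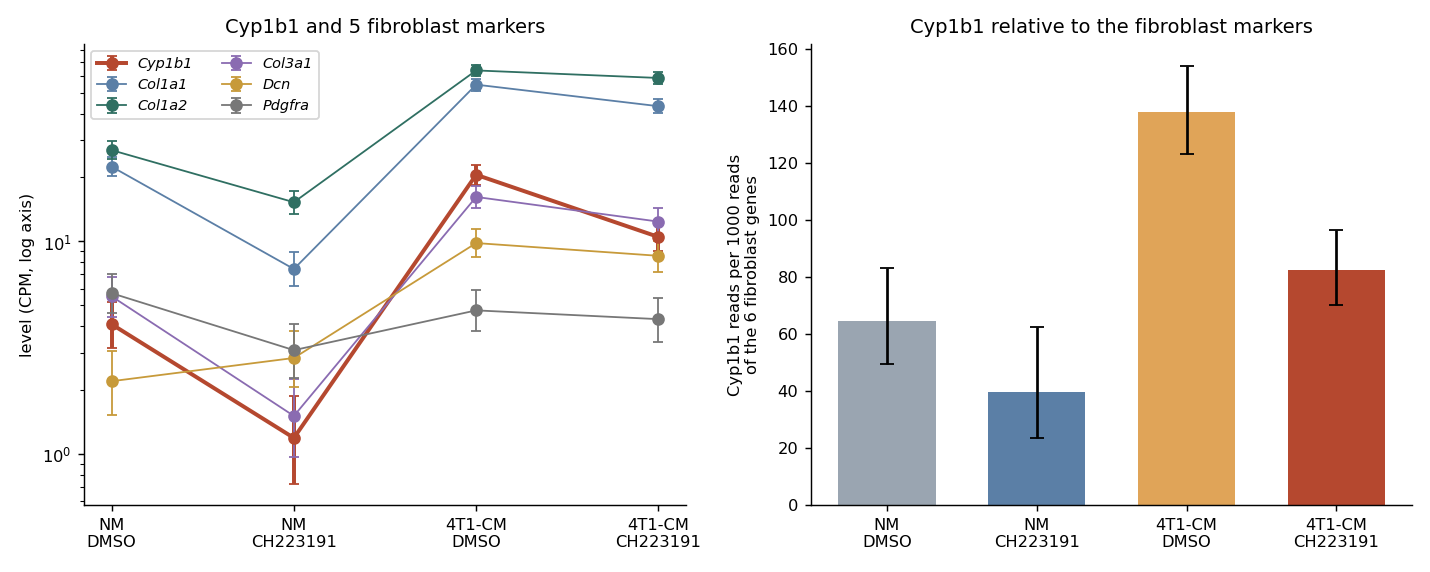
Left, level in CPM (log axis) of Cyp1b1 (thick red line) and of the 5 fibroblast markers with at least 10 reads in a library, in the 4 libraries, with exact 95% Poisson intervals. Lum, with at most 3 reads, is left out. Right, Cyp1b1 reads per 1000 summed reads of all 6 fibroblast genes, with exact 95% intervals, which was 138 in 4T1-CM with DMSO and 39.7 to 82.6 in the other libraries.

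Nqo1 (ENSMUSG00000003849; chromosome 8, 107388225 to 107403206, minus strand) encodes a quinone reductase that both AHR and the oxidative stress factor NRF2 are known to induce. It had 28, 18, 70 and 33 reads, highest in 4T1-CM with DMSO. Its log2 ratio of 4T1-CM to NM was 1.17 (0.54 to 1.87) with DMSO and 0.83 (-0.03 to 1.76) with CH223191. For CH223191 against DMSO it was -0.62 (-1.57 to 0.27) in NM and -0.97 (-1.62 to -0.36) in 4T1-CM, where it was 1.95-fold lower. The difference of responses was -0.34, with an interval that runs from -1.47 to 0.80 and includes 0. With both factors at once (4T1-CM with CH223191 against NM with DMSO), Nqo1 was 1.15-fold higher, with an interval of 0.678 to 1.99. The genes nearest to Nqo1 in pattern were Itgb8, Abcg3 and Me1, at distances of 0.0448, 0.141 and 0.273, of which Itgb8 had 10 to 39 reads.

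Since Nqo1 answers to NRF2 as well, the list of 13 NRF2 targets and regulators was read beside it. All 13 were kept, and Slc7a11, the cystine transporter, was the 1 gene called higher in both comparisons of 4T1-CM, with 344, 248, 3853 and 3042 reads. The list's medians for 4T1-CM were -0.17 with DMSO and -0.32 with CH223191. Hmox1, haem oxygenase 1, had 7506, 10816, 20252 and 19179 reads and a log2 ratio for 4T1-CM of 1.30 with DMSO and 0.80 with CH223191. For CH223191 no gene of the list was called in either medium, and Nqo1 had the lowest ratio of the 13 in both.

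Tiparp (ENSMUSG00000034640; chromosome 3, 65528410 to 65555518, plus strand) encodes a mono-ADP-ribosyltransferase that is induced by AHR and represses it. It had 882, 972, 1529 and 1332 reads, with both 4T1-CM libraries above both NM libraries. Its log2 ratio of 4T1-CM to NM was 0.66 (0.54 to 0.78) with DMSO and 0.42 (0.30 to 0.54) with CH223191, which is 1.58-fold and 1.34-fold. For CH223191 against DMSO it was 0.14 (0.01 to 0.28) in NM and -0.09 (-0.20 to 0.02) in 4T1-CM, and the difference of responses was -0.23 (-0.41 to -0.06). Thus Tiparp and Arnt were the 2 members for which the counting interval of the difference excluded 0, in opposite directions, with TMM scaling. Scaled to Actb, whose own difference was 0.22, that of Tiparp was -0.46 (-0.63 to -0.29), while that of Arnt was lost. The same scaling gave intervals below 0 for Hsp90aa1, Hsp90ab1 and Ptges3. An antisense processed pseudogene, 4931440P22Rik, covers 223 of its exonic bases and had 101, 80, 68 and 73 reads. Whether counting used the strand is not given in the sources used here, so reads over these bases cannot be assigned with certainty. The genes nearest in pattern to Tiparp were Mtpap, Zfp467 and Kantr, at distances of at most 0.0346, and those nearest to Ahr were Abcb1a, Gcnt2 and Arl4c, at 0.112, 0.245 and 0.257.

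The promoter windows of the 3 target genes are shown because AHR is known to act through the core GCGTG, here searched on both strands (CACGC on the other) and set in capitals. Each window runs from 250 bases before to 50 after the RefSeq start, in GRCm38.p6, and is written along the strand of the gene.
Cyp1b1, chr17:79715012-79715311, minus strand: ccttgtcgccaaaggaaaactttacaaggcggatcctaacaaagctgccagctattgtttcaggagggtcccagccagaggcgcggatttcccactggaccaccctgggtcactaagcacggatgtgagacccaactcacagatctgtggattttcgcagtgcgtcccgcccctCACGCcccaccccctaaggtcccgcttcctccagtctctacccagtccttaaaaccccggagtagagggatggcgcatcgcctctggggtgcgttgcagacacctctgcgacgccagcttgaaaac
Nqo1, chr8:107403156-107403455, minus strand: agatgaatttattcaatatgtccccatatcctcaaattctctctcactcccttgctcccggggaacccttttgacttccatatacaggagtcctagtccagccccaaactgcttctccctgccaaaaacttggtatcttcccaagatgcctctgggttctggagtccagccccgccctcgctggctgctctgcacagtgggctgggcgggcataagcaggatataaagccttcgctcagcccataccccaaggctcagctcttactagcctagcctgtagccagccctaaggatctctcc
Tiparp, chr3:65528197-65528496, plus strand: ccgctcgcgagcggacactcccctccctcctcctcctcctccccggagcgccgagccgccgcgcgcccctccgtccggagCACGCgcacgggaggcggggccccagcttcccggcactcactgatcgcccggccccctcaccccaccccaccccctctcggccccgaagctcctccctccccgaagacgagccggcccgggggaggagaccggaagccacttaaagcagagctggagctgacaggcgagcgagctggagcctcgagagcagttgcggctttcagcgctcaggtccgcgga
The core stood once in the window of Cyp1b1, with its first base at -76, and once in that of Tiparp, at -170, and it was not in the window of Nqo1. It occurs in 32.4% of all 32851 windows, so a match is frequent. The longer form TNGCGTG, which contains the core, occurs in 5.07% of windows and in none of these 3, and TGACNNNGC, the core of the antioxidant response element, occurs in 12.4% and in none of the 3. Windows were given for Arnt and Ptges3 as well, both with the core, and Ahr, Hsp90aa1 and Hsp90ab1 were without one. In all, 4 of the 5 members with a window held the core. Sequence outside the windows was not searched, so a missing match holds for the window only.

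The wider list of AHR targets held 16 genes, of which 11 were kept. Cyp1a1, Cyp1a2 and Aldh3a1, enzymes of xenobiotic breakdown, had 0 reads in every library, which allows a level of up to 0.171 to 0.189 CPM (3 reads). Ugt1a6a and Scin had at most 9 and 3 reads. Of the 11 kept, 6 were called higher in both comparisons of 4T1-CM (Cyp1b1, Ugt1a6b, Tnfaip6, Socs2, Ereg and Serpinb2) and none lower, where 8.18% and 3.38% of all genes were. Ugt1a6b, Tnfaip6 and Ereg passed the filter only through 4T1-CM libraries, so their calls cannot be separated from the filter. Among the kept targets with at least 10 reads in every library, Cyp1b1 alone was called higher in both comparisons. The list's median for 4T1-CM was 1.67 with DMSO and 2.93 with CH223191, against 0.01 and 0.02 over all genes. Both medians include Ugt1a6b, Tnfaip6 and Ereg, so they cannot be separated from the filter either. The list's ratios spanned -0.87 to 5.80 with DMSO and -0.84 to 5.78 with CH223191, so not every kept target was higher. The counting interval of the lowest ratio lay below 0 in both comparisons. With genes at 3 reads or fewer set to the bound that 3 reads give, the second median was 1.13 and the first was 1.67 again.

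Serpinb2, which encodes plasminogen activator inhibitor 2, had 13, 6, 825 and 365 reads, and its log2 ratio for 4T1-CM was 5.80 (5.07 to 6.77) with DMSO and 5.78 (4.76 to 7.35) with CH223191. It was also the 1 target called lower with CH223191 in both media, at -1.05 (-2.79 to 0.38) in NM, where it rests on 13 and 6 reads, and -1.07 (-1.25 to -0.89) in 4T1-CM. Socs2, a suppressor of cytokine signalling, had 18, 9, 64 and 86 reads, and in 4T1-CM it was higher with CH223191, by 0.53 (0.05 to 1.02). Ereg, which encodes the growth factor epiregulin, had 0, 0, 22 and 12 reads. Against a floor of 3 reads per library, it was 6.68-fold higher with 4T1-CM with DMSO and 3.92-fold higher with CH223191. These folds leave out counting error in the 22 and 12 reads. On the log2 scale, the lower ends of its counting intervals were 2.32 with DMSO and 1.44 with CH223191. Ugt1a6b had 3, 2, 32 and 19 reads and Tnfaip6 had 1, 0, 11 and 6, and against the same floor Tnfaip6 fell short of a 2-fold difference with CH223191. For CH223191 the list's median was -0.48 in NM and -0.63 in 4T1-CM, where the median over all genes was 0.00 in both. In NM 3 of the 11 genes were called lower, against 3.31% of all genes, and in 4T1-CM 1 was, against 2.62%, with none called higher. Of the 3, Cyp1b1 had a counting interval without 0, the interval of Serpinb2 included 0, and Tnfaip6 rests on 0 reads against 1. The lowest ratio of the list for CH223191 was that of Cyp1b1 in NM and that of Serpinb2 in 4T1-CM.

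**Figure D4:**
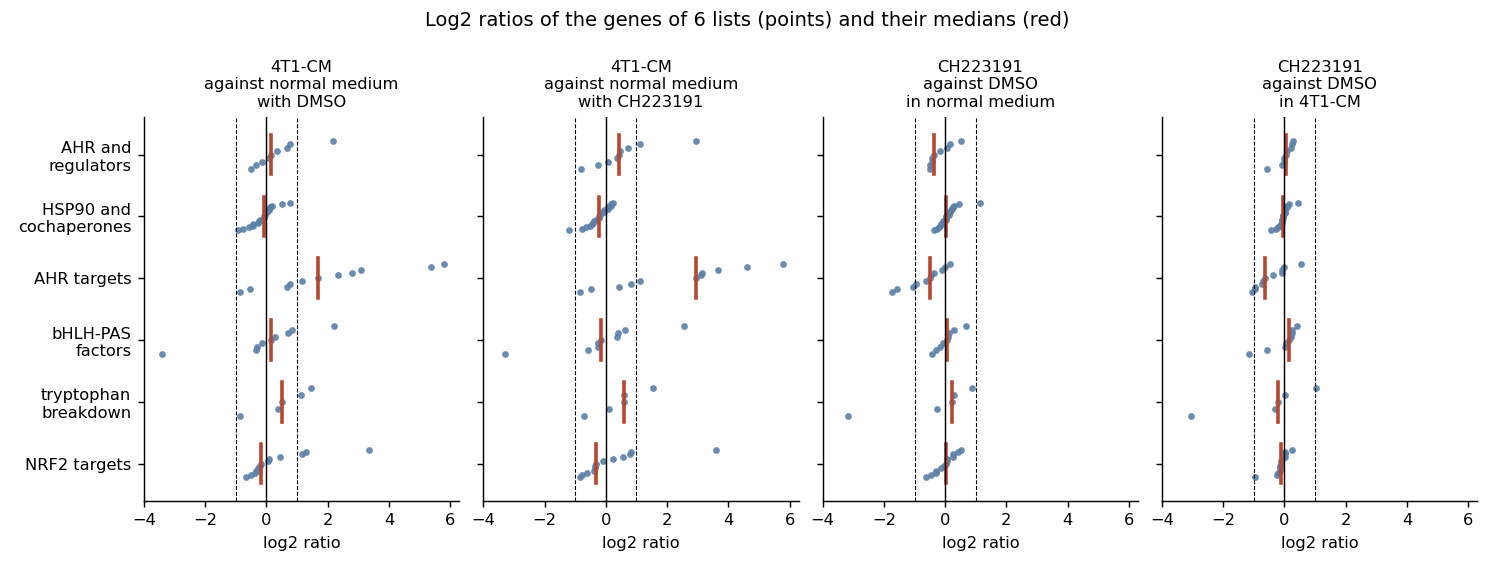
Log2 ratios of the kept genes of 6 lists (rows, 1 point per gene) in the 4 comparisons (panels), with the list's median as a red bar and dashed lines at a 2-fold difference. The AHR targets spread from -0.87 to 5.80 and from -0.84 to 5.78 in the panels of 4T1-CM, with medians of 1.67 and 2.93. These medians include Ugt1a6b, Tnfaip6 and Ereg, which passed the filter only through 4T1-CM libraries. With genes at 3 reads or fewer set to the bound that 3 reads give, the second median was 1.13. The medians of HSP90 and its cochaperones, -0.07 and -0.21, lie near 0.

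Most genes of the list for tryptophan breakdown and AHR ligand formation had few reads, and the highest count was 83 in a library. Of 12 genes, 5 were kept, Haao and Aadat had 0 reads in every library, and Ido1 had at most 2. Kynu, kynureninase, met the 2-fold rule as higher in both comparisons of 4T1-CM and lower in both of CH223191, but on 4, 0, 13 and 1 reads. Of these, only the comparison of CH223191 with DMSO in 4T1-CM had a counting interval without 0. Il4i1, a source of indole ligands, had 1, 1, 2 and 4 reads.

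**Figure D5:**
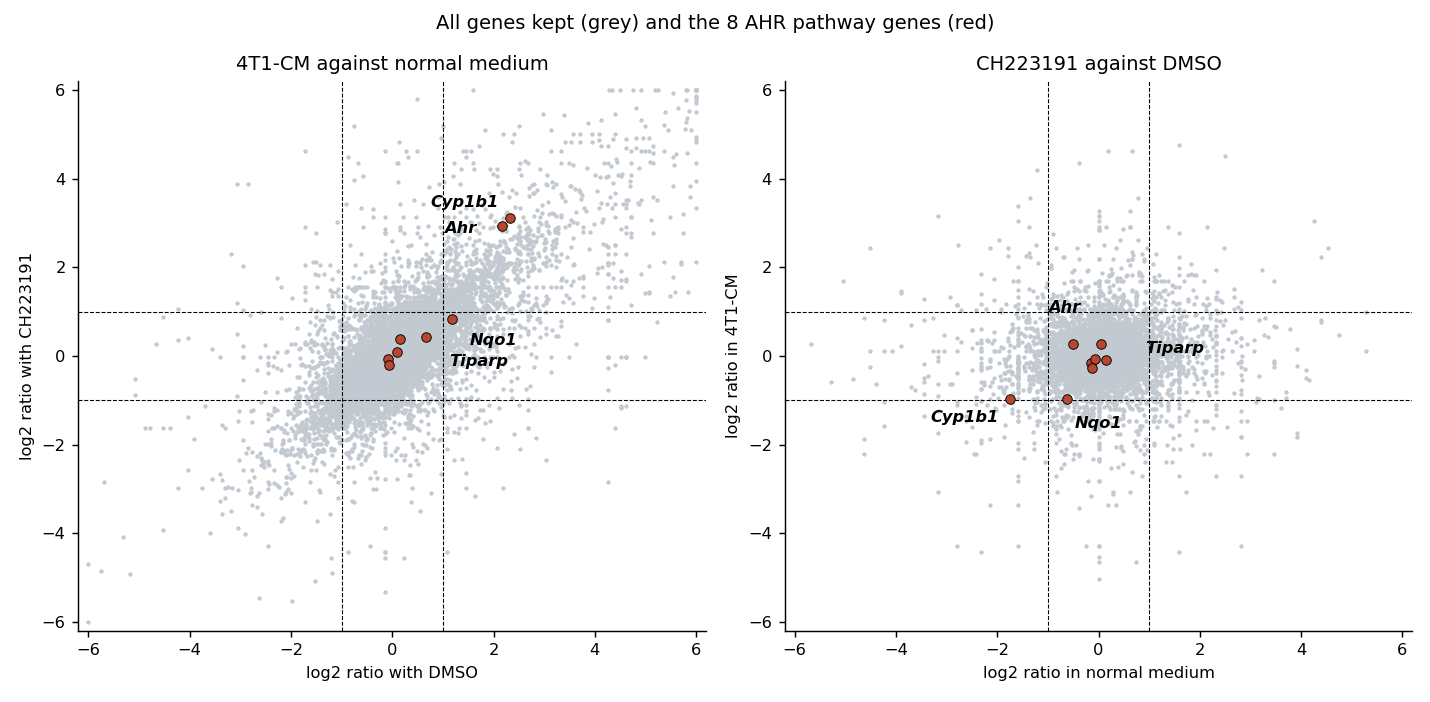
Log2 ratios of all 13715 genes kept (grey) and of the 8 AHR pathway genes (red), 4T1-CM against normal medium on the left (with DMSO on the horizontal axis, with CH223191 on the vertical) and CH223191 against DMSO on the right (in normal medium on the horizontal axis, in 4T1-CM on the vertical). Ratios beyond 6 are drawn at 6, and dashed lines mark a 2-fold difference. Ahr and Cyp1b1 lie in the upper right corner region on the left, at 2.17 and 2.33 with DMSO, and in the right panel Cyp1b1 lies left of the lower dashed line, at -1.74.

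A fit with medium and inhibitor as additive terms over the 4 libraries gives the only test this design allows, with 1 residual degree of freedom and a spread that measures departure from additivity, not variation between cultures. In edgeR's quasi-likelihood test with Benjamini-Hochberg adjustment over all genes, 4 of the 8 members were higher with 4T1-CM, where 16.4% of all genes were, and none was lower, against 16.2%. The log2 fold for 4T1-CM in edgeR was 2.64 for Cyp1b1 (adjusted p = 1.6e-05), 2.55 for Ahr (adjusted p = 5.1e-05), 0.54 for Tiparp (adjusted p = 0.0083) and 1.03 for Nqo1 (adjusted p = 0.04). In DESeq2, Nqo1 did not pass (adjusted p = 0.33) while Cyp1b1, Ahr and Tiparp did, where 9.14% of the genes with an adjusted p were higher and 9.39% lower. For CH223191, edgeR called 0 of the 8 genes in either direction, against 0.0729% of all genes higher and 0.00729% lower. Cyp1b1 and Nqo1 alone among them had an unadjusted p under 0.05 in edgeR. In edgeR the log2 fold of Cyp1b1 was -1.21 (unadjusted p = 0.0003), with an adjusted p of 0.14. In edgeR that of Nqo1 was -0.83 (unadjusted p = 0.034), with an adjusted p of 0.76. DESeq2 also called none of these genes for CH223191, and gave Cyp1b1 an adjusted p of 0.34 (unadjusted p = 0.00087), where 0.127% of the genes with an adjusted p were higher and 0.00975% lower. Over all genes edgeR called 11 for CH223191 and DESeq2 14, with 880 and 202 at an unadjusted p under 0.05.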

How the data were processed

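Per the labels, total RNA was extracted with TRIzol and libraries were made with a NEBNext Ultra kit. The deposited table holds raw read counts, as whole numbers for each gene, and all 4 value columns were matched to a sample by name. The submitters' processing notes name HISAT2 2.0.5 and DESeq2. The counting tool and strand setting of these libraries are not given in the sources used here. The 8 genes and all gene lists were chosen with earlier results of these data known.

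Counts were scaled by TMM (edgeR 4.0.16, R 4.3.3) over the 13715 of 54532 genes that reached 10 reads in any library. The log2 ratio of 2 libraries was taken with a prior count of 0.5. Its 95% interval comes from the share of the gene's reads that fell in each library (exact, Clopper-Pearson), and a difference of responses has the exact conditional interval of the odds ratio, both from counting error only (scipy 1.17.1). A gene at or under 3 reads in a library was set against that floor. No test between single libraries was made. Additive fits with medium and inhibitor as terms used edgeR's quasi-likelihood test and DESeq2 1.42.0, with Benjamini-Hochberg adjustment and 1 residual degree of freedom. Alternatives changed the scaling, the filter, the prior count and the gene biotypes. The additive fits were alternatives too.

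All 8 members are named, and 1 gene of a list is not reported here. Other genes are named where they were called in the same direction in both comparisons of a factor, had 0 reads in every library or were the 3 nearest in pattern, or where a result turned on them. Gene models and shared 50-base words came from GENCODE transcripts on GRCm38, and promoter windows from RefSeq. Intervals and calls were tested on simulated counts.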

Additional observations from a re-analysis of the deposited data

How the results depend on the processing

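Calls of the members depended on scaling to Actb and on the use of a test. Scaled to Actb reads, 2 members passed 2-fold for CH223191 against DMSO in 4T1-CM (Cyp1b1 and Nqo1, both at -0.97 with TMM) in place of 0, and 1 member, Cyp1b1, was then lower in both comparisons of CH223191. By edgeR's additive fit 4 members were higher with 4T1-CM, where 2 passed 2-fold in both comparisons, and by that of DESeq2 3 were. Scaling to Actb shifts every gene by the log2 ratio of Actb itself, which was 0.11 and 0.34 for 4T1-CM, with DMSO and with CH223191, and -0.12 and 0.10 for CH223191, in NM and in 4T1-CM. Of 224 ratios of members recomputed over 7 settings, 211 lay within their counting interval and 13 outside it, 11 of them under Actb scaling and 2 under total counts. None of the ratios past 2-fold changed sign. The 4 sign changes were of ratios under 0.1 in size, 3 of them under Actb scaling (Hsp90aa1, Hsp90ab1) and 1, of Arnt in NM, under total counts. No ratio moved by more than 0.34, and without Actb scaling and the prior count of 5 by no more than 0.06. The difference of responses to CH223191 between media, recomputed after seeing the data, was -0.01 in place of 0.21 for Arnt under Actb scaling, and was past 0 by its interval for Hsp90aa1 (-0.23), Hsp90ab1 (-0.22) and Ptges3 (-0.36) under Actb scaling and for Hsp90ab1 (0.06) and Cyp1b1 (0.85) under total counts. The share of all genes past 2-fold changed with the filter: for CH223191 in 4T1-CM it was 5.42% with the filter used, 24% with no filter beyond 1 read (chosen after seeing the data) and 1.16% with at least 10 reads in every library. No replicate could be left out. No paired analysis was possible because each condition has 1 library. Counts of 10 to 70 reads, as for Ahr in NM, Nqo1 and Ahrr, leave intervals over 1 log2 unit wide, and no depth makes up for the lack of replicate cultures.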
